A study of Saccharomyces cerevisiae with 4 samples.

Results

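Mitochondrial protein import and assembly is represented here by 35 yeast genes, which encode the translocases of the outer and inner membranes, the sorting machinery, the processing peptidases and the insertase for proteins made inside the organelle. The genes came from a list of names, and each was read by the probe set, a group of short probes summarised to 1 value, whose platform annotation gives that gene's symbol and no other. Where a gene had several such probe sets, the one with the highest mean intensity was taken. All 35 genes had a probe set, of 5656 genes with one of their own, and all 35 lay above the floor of 18.5 intensity units on every array.

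The samples were 4 total RNA preparations of Saccharomyces cerevisiae ATCC 4126, 1 per Affymetrix yeast array. Galactose B and C came from YP medium with galactose and glucose A and B from YP medium with glucose, all harvested at an optical density of 1.0. No label mentions a mutation, a drug or a second time point, and none says whether the letters mark separate cultures, so the p-values reflect the spread among these 4 arrays alone, which could be technical. As a check of the labels, the galactokinase gene GAL1 read 9927 and 8965 on the galactose arrays, against 36.2 and 40.4 on the glucose arrays. The array medians ran from 108 to 117, and with 2 arrays per medium every value is imprecise.

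Nearly all mitochondrial proteins are made in the cytosol and enter through the TOM complex of the outer membrane. From there, proteins with a cleavable presequence pass through the TIM23 complex and are drawn in by the import motor, metabolite carriers are escorted by small TIM chaperones to the TIM22 complex, beta-barrel proteins go to the SAM complex, and small cysteine-rich proteins of the intermembrane space are trapped by the Mia40 and Erv1 disulfide relay. Yeast cells depend on this machinery during fermentation as well as during respiration, because mitochondria also make iron-sulfur clusters and amino acids.

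The import genes as a group read lower in galactose than in glucose, by small amounts that no single gene carried past the test. The median difference of the 35 genes was -0.38 on the log2 scale, or 1.30-fold lower in galactose, against a median of -0.01 over all 7302 probe sets tested. Of the 35 genes, 30 had a lower mean in galactose and 5 a higher one, where 3748 of the 7302 tested probe sets had a lower one. Every galactose value was below every glucose value for 21 genes, called apart downward here, and above for 0, called apart upward. Over all tested probe sets this was found for 22.7% downward and 17.5% upward, and over 5208 genes that exceed the floor on every array, with 1 probe set each, for 23.8% downward. Without galactose C the median was -0.53 and 2 genes were apart upward, and without galactose B it was -0.22 and 8 were. Without glucose A 2 genes were apart upward, and without glucose B 4. With 1 array left out the condition is easier to meet, so these counts cannot fall. Their share over all probe sets was not computed.

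With limma and the Benjamini-Hochberg adjustment over all 7302 probe sets, 0 of the 35 genes passed an adjusted p of 0.05, where 0.835% of all probe sets did (61). Among the 5208 genes that exceed the floor on every array, with 1 probe set each, 12 passed. The smallest adjusted p was 0.243, for PAM18. At an unadjusted p under 0.05, 6 of the 35 genes were lower in galactose (PAM18, TIM22, TIM50, TOM22, TIM23 and TOM5) and 0 were higher, where 4.33% of all probe sets were lower at that level. An exact permutation of 2 arrays against 2 cannot go below a two-sided p of 0.333.

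**Figure D1:**
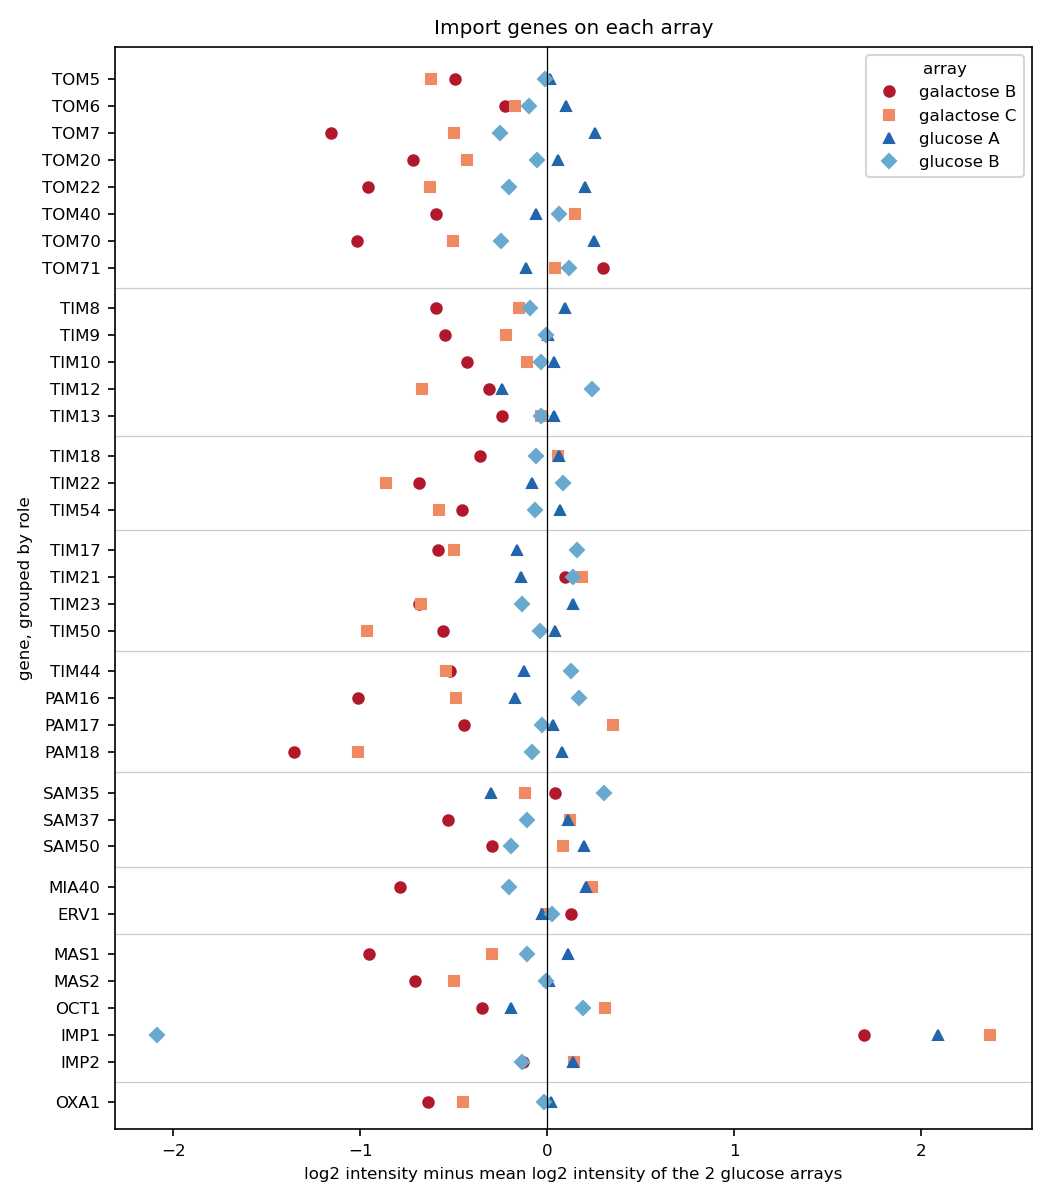
Log2 intensity of each import gene on each of the 4 arrays, minus the gene's mean over the 2 glucose arrays, with genes grouped by role from the TOM complex at the top to the insertase OXA1 at the bottom. The galactose points of 21 genes lie left of both glucose points, and IMP1 is shifted right because glucose B is far to the left.

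The TOM complex is the entry gate, in which TOM40 forms the pore, TOM20, TOM22 and TOM70 receive precursors, and TOM5, TOM6 and TOM7 are small subunits that relay precursors or tune assembly. Of its 8 genes, 6 were apart downward, where 22.7% of all tested probe sets were, and the median difference was -0.57. The receptor gene TOM22 read 716.9 and 900.2 in galactose B and C, against 1602 and 1209 in glucose A and B. It was 1.73-fold lower in galactose, a log2 difference of -0.79 ± 0.27 (limma adjusted p = 0.533). Here and below, ± gives the moderated standard error (SE) of limma, with n = 2 per medium. This SE draws on the spread of all tested probe sets and is not the spread of a gene's own arrays alone. The media did not overlap, although glucose B lay between glucose A and the galactose arrays.

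TOM70, the receptor for carrier precursors and their cytosolic chaperones, read 702.6 and 1004 in galactose, against 1691 and 1199 in glucose, a log2 difference of -0.76 ± 0.31 (limma adjusted p = 0.591). Its paralog TOM71, a related receptor of lower abundance, read 272 and 228 in galactose, against 204 and 239 in glucose, and the media overlapped (log2 difference 0.17 ± 0.26, limma adjusted p = 0.877). The difference of TOM70 minus that of TOM71 was -0.93 on the log2 scale (-1.32 for galactose B, -0.55 for C). This contrast had no overlap between the media, but the exact two-sided permutation p was 0.333, the smallest that 4 arrays allow.

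The presequence receptor gene TOM20 read 801.7 and 979.5 in galactose, against 1371 and 1269 in glucose, with no overlap (log2 difference -0.57 ± 0.23, limma adjusted p = 0.591). TOM7 had the largest difference of the complex, at 475 and 750.1 in galactose against 1262 and 888 in glucose (log2 difference -0.83 ± 0.34, limma adjusted p = 0.591). TOM5 read 1866 and 1711 in galactose, against 2652 and 2604 in glucose, so that the arrays of a medium lay close together and the media apart (log2 difference -0.56 ± 0.20, limma adjusted p = 0.560). TOM6 was also lower on both galactose arrays, at 3327 and 3460 against 4173 and 3637, a log2 difference of only -0.20. The pore gene TOM40 did not separate the media: it read 626 and 1048 in galactose, against 906 and 985.5 in glucose, with galactose C the highest of the 4 arrays.

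The TIM23 complex carries presequence proteins across or into the inner membrane. TIM23 and TIM17 encode its membrane core, TIM50 the receptor that meets the presequence, and TIM21 a subunit that links it to the TOM complex and the respiratory chain. TIM23 read 499 and 502 in galactose, against 881 and 728 in glucose, a 1.60-fold lower level (log2 difference -0.68 ± 0.23, limma adjusted p = 0.540). TIM17 read 1849 and 1961 in galactose, against 2479 and 3097 in glucose (log2 difference -0.54 ± 0.23, limma adjusted p = 0.591). TIM50 read 615 and 464 in galactose, against 929.5 and 880.2 in glucose (log2 difference -0.76 ± 0.25, limma adjusted p = 0.531). All 3 genes had every galactose value below every glucose value. TIM21 was the exception in the complex, at 390.3 and 415 in galactose against 332 and 402 in glucose, with overlap and a log2 difference of 0.14 ± 0.25.

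The import motor pulls the presequence chain into the matrix with the help of mitochondrial Hsp70. TIM44 tethers the chaperone to the channel, PAM18 is the J-protein that stimulates its ATPase, PAM16 is the J-like partner that holds PAM18 in place, and PAM17 assists motor assembly. PAM18 had the largest negative difference of all 35 genes, at 381 and 485 in galactose against 1032 and 923 in glucose. It was 2.27-fold lower in galactose, a log2 difference of -1.18 ± 0.25 with a 95% interval of -1.83 to -0.53 before any adjustment (limma adjusted p = 0.243). The higher of the galactose values was well below the lower of the glucose values.

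PAM16 read 174 and 251 in galactose, against 312 and 396 in glucose, also without overlap (log2 difference -0.75 ± 0.31, limma adjusted p = 0.591). TIM44 read 1078 and 1061 in galactose, against 1417 and 1684 in glucose, and its galactose arrays were nearly equal (log2 difference -0.53 ± 0.22, limma adjusted p = 0.591). PAM17 did not follow them: it read 592 and 1028 in galactose, against 823 and 789.8 in glucose, so that the galactose arrays lay on either side of the glucose arrays.

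**Figure D2:**
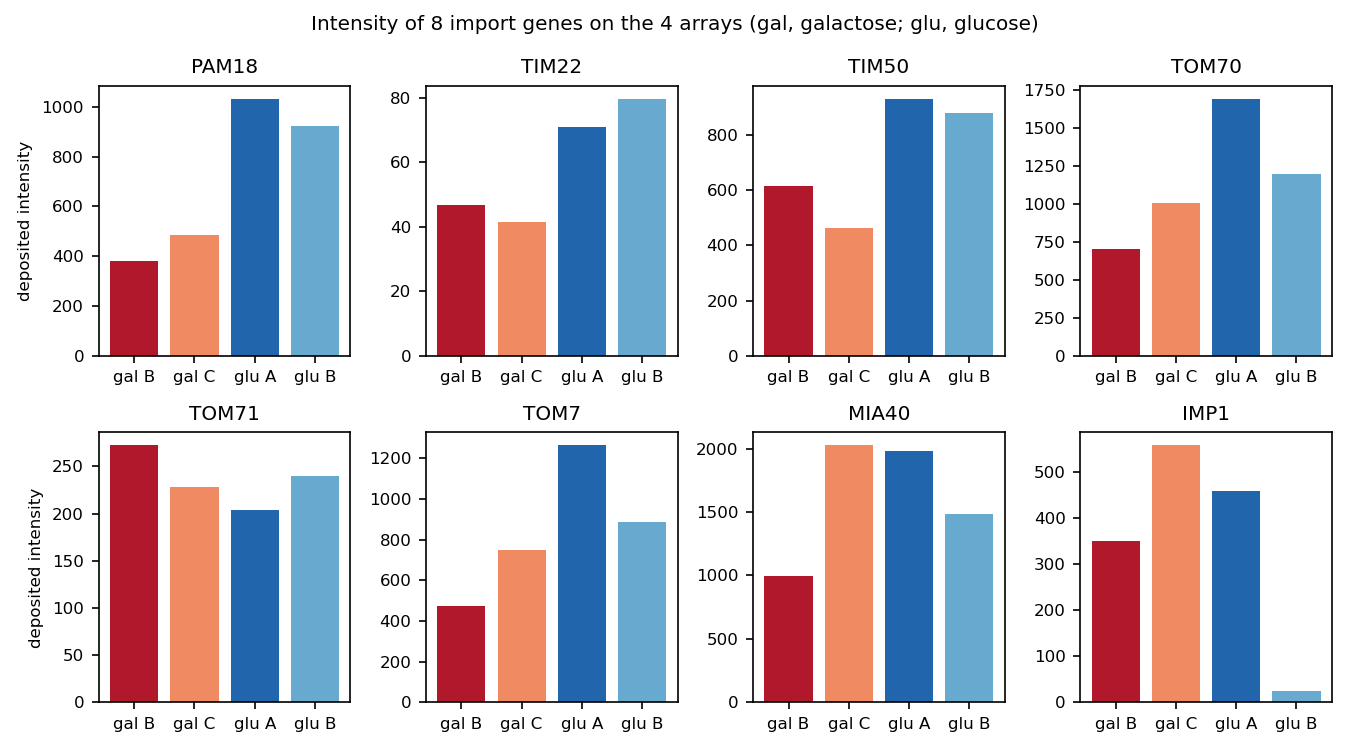
Deposited intensity of 8 import genes on each array, with galactose (B, then C) left of glucose (A, then B), each bar 1 array and each axis starting at 0. The genes were chosen after their values were seen, to show clear separation (PAM18, TIM22, TIM50), the paralogs TOM70 and TOM71, a wide spread within galactose (TOM7, MIA40) and the single low value of IMP1 on glucose B.

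The carrier route runs through the small TIM chaperones to the TIM22 complex. The chaperones TIM9 and TIM10 form the main shuttle of the intermembrane space, TIM8 and TIM13 form a second one, and TIM12 docks the shuttle on the TIM22 complex. All 5 small TIM genes had a lower mean in galactose, where 3748 of the 7302 tested probe sets did, and their median difference was -0.37. Of the 5, 4 were apart downward, where 22.7% of all tested probe sets were. TIM9 read 563 and 705 in galactose, against 825 and 819 in glucose (log2 difference -0.38 ± 0.24, limma adjusted p = 0.716). TIM10 read 3152 and 3946 in galactose, against 4358 and 4149 in glucose (log2 difference -0.27 ± 0.22, limma adjusted p = 0.769).

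TIM8 read 389.8 and 529.9 in galactose, against 629 and 551 in glucose, so that galactose C came close to glucose B. TIM13 overlapped by a narrow margin, at 2028 and 2340 in galactose against 2457 and 2338 in glucose. TIM12 was the gene of this group with galactose C as the lower array, at 720.1 and 561 in galactose against 755 and 1054 in glucose (log2 difference -0.49 ± 0.29, limma adjusted p = 0.696).

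The TIM22 complex inserts the carriers into the inner membrane. Its channel gene TIM22 was dim, at 46.8 and 41.4 in galactose against 70.9 and 79.7 in glucose, but above the floor of 18.5 on every array. It was 1.71-fold lower in galactose (log2 difference -0.77 ± 0.21, limma adjusted p = 0.406), and the media did not overlap. The size of this difference depends on how low intensities are handled. It was -0.30 with the floor at the 40th percentile of all intensities, and stayed at -0.77 with the floor at the 10th. With no floor but 18.5 added to every value it was -0.58. TIM54, a subunit with a large domain facing the intermembrane space, read 542 and 497 in galactose, against 779 and 709 in glucose, also apart (log2 difference -0.52 ± 0.22, limma adjusted p = 0.592). TIM18, a small membrane subunit, read 184 and 245.3 in galactose, against 245.6 and 226 in glucose, and overlapped.

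The genes of the SAM complex and the disulfide relay did not separate the media on the brightest probe set of each gene. SAM50 is the barrel that folds other outer membrane barrels, and SAM35 and SAM37 are its partners on the cytosolic side. SAM50 read 393 and 512 in galactose, against 553 and 422 in glucose. SAM37 read 205 and 322 in galactose, against 319 and 274 in glucose. SAM35 read 450.4 and 403 in galactose, against 355 and 539.9 in glucose. In all 3 genes the ranges overlapped, and the log2 differences lay between -0.20 and -0.04.

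MIA40, the oxidoreductase that traps cysteine-rich proteins, read 994 and 2025 in galactose, against 1977 and 1488 in glucose. The galactose arrays thus lay outside the glucose range on opposite sides (log2 difference -0.27 ± 0.41, limma adjusted p = 0.876). ERV1, the sulfhydryl oxidase that recharges Mia40, was the only one of the 35 genes with several probe sets, 3 in all. Its brightest probe set read 398 and 363 in galactose, against 357 and 371 in glucose, with overlap (log2 difference 0.06 ± 0.23). The other probe sets disagreed with each other: one read 239 and 248 in galactose, against 307 and 351 in glucose, without overlap (log2 difference -0.43 ± 0.24, limma adjusted p = 0.678), and the dimmest overlapped (log2 difference 0.13 ± 0.34). The direction for ERV1 is therefore uncertain.

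Of the 5 peptidase genes, 2 were apart downward, where 22.7% of all tested probe sets were. MAS1 and MAS2 encode the catalytic and the substrate-binding subunit of the mitochondrial processing peptidase. MAS1 read 500.2 and 791 in galactose, against 1046 and 898 in glucose (log2 difference -0.62 ± 0.31, limma adjusted p = 0.633). MAS2 read 374 and 432 in galactose, against 613 and 606 in glucose (log2 difference -0.60 ± 0.23, limma adjusted p = 0.579). Both genes had no overlap between the media. OCT1, which trims a further octapeptide from some precursors, overlapped at 122 and 192 in galactose against 136 and 177 in glucose.

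IMP1 and IMP2 encode subunits of the inner membrane peptidase, which cleaves sorting signals on the intermembrane space side. IMP2 showed hardly any difference, at 196 and 237 in galactose against 236 and 195 in glucose (log2 difference 0.01 ± 0.27). IMP1 read 349 and 557.0 in galactose, against 459 and 25.4 in glucose, so that glucose B alone was low. Its log2 difference of 2.03 ± 1.40 had a 95% interval of -1.62 to 5.68 (limma adjusted p = 0.738). Without glucose B the difference was -0.06, so the highest value among the 35 genes rests on 1 array. Glucose A exceeded glucose B by 18.1-fold for IMP1, and 4 of the 7302 tested probe sets, IMP1 included, differed that much between the glucose arrays. OXA1, the insertase that places proteins made by mitochondrial ribosomes into the inner membrane, read 331 and 377 in galactose, against 522 and 507 in glucose, without overlap (log2 difference -0.54 ± 0.23, limma adjusted p = 0.592).

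The galactose arrays did not show the lower level to the same extent. Against the glucose mean, galactose B had a median of -0.53 over the 35 genes and galactose C one of -0.22. On galactose B, 30 of 35 genes lay below the glucose mean, where 57.9% of the 5208 genes did. On galactose C, 24 of 35 genes did, where the share was 51.8%. Both galactose arrays lay below the glucose mean for 22 genes, both above it for 3, and on opposite sides for 10.

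Inside galactose, C exceeded B for 26 of 35 genes, where 49.8% of the 5208 genes did, with a median difference of 0.29 on the log2 scale. There is no test of 1 array against 1. MIA40 alone reached 2-fold (2.04-fold higher in C), 1 of 35 genes, where 12.7% of the tested probe sets reached it in either direction. The genes with the widest upward step in C after MIA40 were PAM17 (0.80), TOM40 (0.74) and IMP1 (0.68). TIM50 had the widest step the other way, at -0.41. TIM23 (0.01) and TIM44 (-0.02) were nearly equal on both galactose arrays. Inside glucose, B lay below A for 24 of 35 genes, where 43.5% of the 5208 genes did, with a median difference of -0.07, and IMP1 alone reached 2-fold, 1 of 35 genes, where 4.29% of tested probe sets did.

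**Figure D3:**
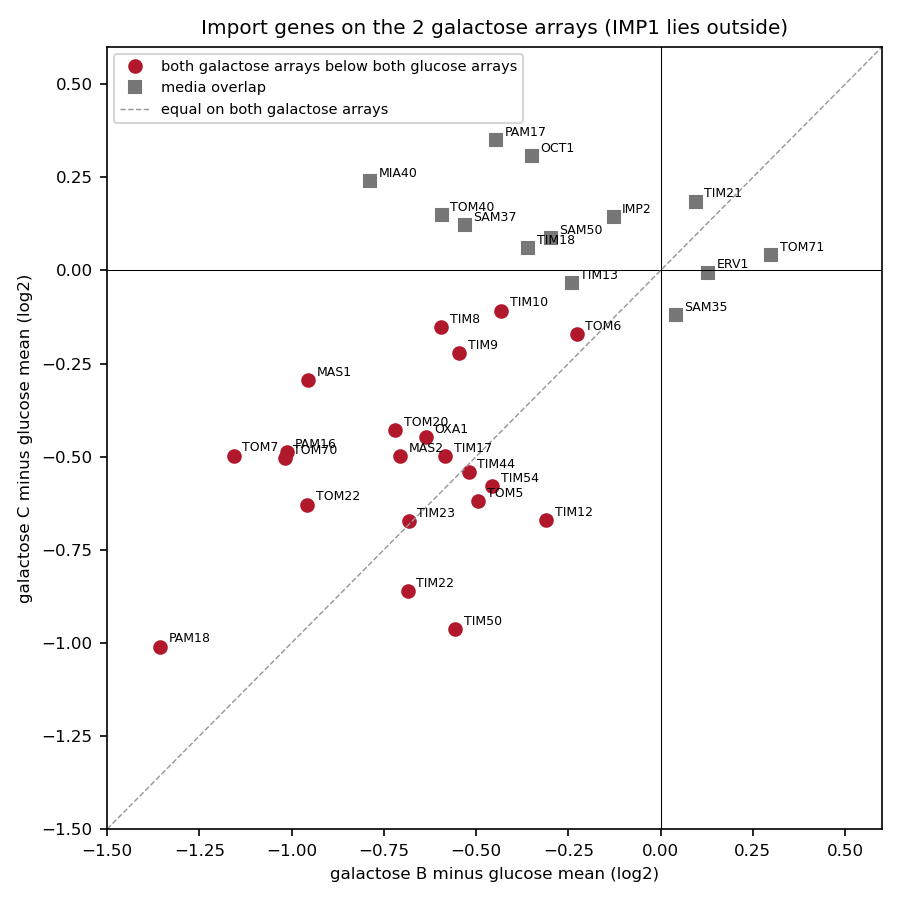
Each import gene except IMP1 placed by its log2 difference from the glucose mean on galactose B (horizontal) and on galactose C (vertical), with red circles for genes whose galactose arrays both lie below both glucose arrays and grey squares for genes whose media overlap. Most points lie above the dashed line of equal values, and PAM18 lies lowest on both axes.

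Other genes of the pathway were mixed in direction. Of 21 further import genes, such as those for assisting chaperones and minor proteases, 0 passed the test, with a median difference of -0.21. Of the 21, 8 were apart downward and 6 upward, where 22.7% and 17.5% of all tested probe sets were. The 4 with the largest differences among those that separated the media were MIM2, YDJ1, HOT13 and SOM1. MIM2, which helps insert helical proteins into the outer membrane, read 848 and 507.3 in galactose, against 346.5 and 421 in glucose (log2 difference 0.78, limma adjusted p = 0.592). SOM1, a partner subunit of the inner membrane peptidase, was higher in galactose too, at 436 and 488 against 327 and 304 (log2 difference 0.55). The cytosolic chaperone gene YDJ1 read 3862 and 2015 in galactose, against 3923 and 4539 in glucose, so that its log2 difference of -0.60 comes mostly from galactose C (-1.07, against -0.13 for galactose B). HOT13, which aids the recycling of Mia40, read 70.1 and 55.6 in galactose, against 77.9 and 109.8 in glucose (log2 difference -0.57).

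Set beside other mitochondrial genes, the import genes lay between the mitochondrial ribosomal proteins and the respiratory chain. Of 71 mitochondrial ribosomal protein genes, 71 had a lower mean in galactose, where 3748 of the 7302 tested probe sets did. Of the 71, 55 were apart downward, and the median difference was -0.58. Of 34 respiratory chain and ATP synthase genes, 0 were apart downward and 2 upward (ATP18 and ATP4), with a median of -0.02. Of 18 carrier and porin genes, the cargo of the TIM22 and SAM routes, 4 were apart downward and 3 upward, with a median of -0.00061 and with the oxodicarboxylate carrier gene ODC1 at 458 and 747.4 in galactose against 181 and 194 in glucose (log2 difference 1.64, limma adjusted p = 0.211). Over all tested probe sets 22.7% were apart downward and 17.5% upward. In these 3 lists 0 genes passed the test, and differences between lists were not tested.

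Galactose C was mostly above galactose B among the mitochondrial ribosomal protein and respiratory genes. C exceeded B for 70 of 71 mitochondrial ribosomal protein genes (median 0.61), for 34 of 34 respiratory genes (median 0.55), and for 10 of 18 carrier and porin genes (median 0.08). Over the 5208 genes that exceed the floor on every array, this share was 49.8%. Against the glucose mean, the respiratory genes had a median of -0.30 in galactose B, against 0.23 in C, the mitochondrial ribosomal protein genes -0.85, against -0.28, and the carrier and porin genes -0.07, against -0.13. What part these shifts have in the values of the import genes was not tested.

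**Figure D4:**
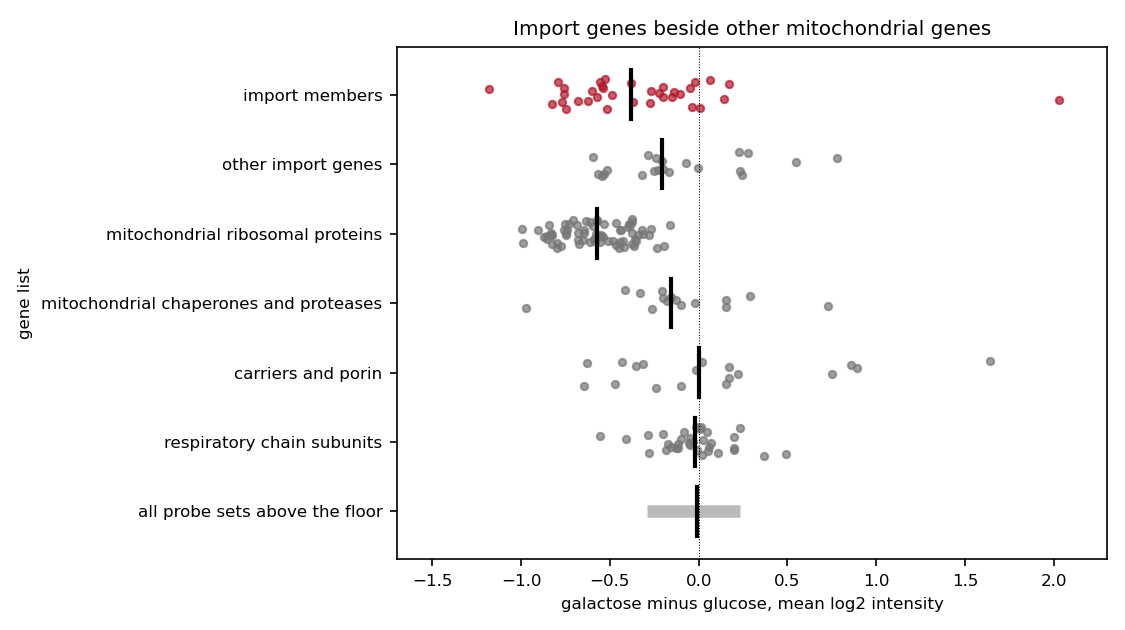
Difference of mean log2 intensity, galactose minus glucose, for each gene of the import list (red) and of 5 other mitochondrial lists (grey), with a black bar at each median and, in the lowest line, a grey band from the lower to the upper quartile of all 6602 probe sets that exceed the floor on every array. The import median lies at -0.38, between -0.58 for the mitochondrial ribosomal proteins and -0.02 for the respiratory chain, and the single red point at 2.03 is IMP1.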

How the data were processed

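The authors deposited 1 intensity per probe set and array on a linear scale; how they were summarised and scaled is not given in the sources used here. Array medians differed by a factor of 1.085, and no further scaling was applied. After 60 array controls were left out, 9275 probe sets remained: the platform annotation gave 1 gene symbol for 6504, several for 328 and none for 2443. RefSeq (assembly R64) held the gene number of all 35 genes. Coordinates and sequences were not used here.

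A floor at the 25th percentile of the pooled values (18.5) was applied before log2, and the 1973 probe sets that never exceeded it were left untested. The media were compared with limma 3.58.1 in R 4.3.3 (lmFit, eBayes with an intensity trend, 4.731 total degrees of freedom), with p-values adjusted by Benjamini-Hochberg over 7302 probe sets. The fit was also run on simulated data with known changes, mostly larger than the differences of the import genes. That run does not show whether changes as small as theirs would be detected. Separation of the media was counted on the intensities as deposited. The genes, the further lists and the tests were chosen with earlier results of these data known. All 35 genes may be named; from each further list, up to 4 genes with the largest difference among those that separate the media are named, besides any that pass. Alternatives were other scalings, floors, filters, variance models and thresholds, averaging all probe sets of a gene, and each array left out. Python 3.11.15 and matplotlib 3.10.9 drew the figures.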

Additional observations from a re-analysis of the deposited data

How the results depend on the processing

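No paired analysis was possible because the media share only the letter B. Under all 15 alternatives 0 of the 35 genes passed, with smallest adjusted p-values from 0.219 (quantile normalization) to 1 (without glucose B). The number of all probe sets called, 61, went to 28 with quantile normalization and with no floor, to 36 with the floor at the 10th percentile, to 100 at an adjusted p under 0.1, to 6 among probe sets with 1 gene symbol, and to 0 when any 1 array was left out. With all 4 arrays, the count of 21 genes apart downward went to 18 when arrays were shifted to a common median, and that of 0 genes apart upward to 2. The share over all probe sets after this shift was not computed, so the change cannot be set against that of other genes. With 1 array left out, the counts ran from 21 to 29 downward (29 without galactose C) and from 2 to 8 upward (8 without galactose B). Leaving out an array makes the condition easier to meet, so these counts cannot fall and do not show how stable the 4-array counts are. The median difference of -0.38 ran from -0.53 without galactose C to -0.22 without galactose B. With quantile normalization 0 genes reached 2-fold between the galactose arrays.

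In the 11 alternatives run for single genes, the sign of the difference was kept throughout for 24 genes and turned in at least 1 for 11. The difference of the dim gene TIM22, -0.77, became -0.30 under the floor at the 40th percentile. With 1 array left out, the log2 difference ran from -0.59 to 0.15 for TOM40, -0.36 to 0.0592 for TIM18, -0.45 to 0.35 for PAM17, -0.34 to 0.26 for SAM35, -0.53 to 0.12 for SAM37, -0.30 to 0.0898 for SAM50, -0.79 to 0.24 for MIA40, -0.00592 to 0.13 for ERV1, -0.35 to 0.31 for OCT1, -0.0572 to 4.12 for IMP1 and -0.13 to 0.14 for IMP2. The mean over its probe sets gave -0.0811 for ERV1, and quantile normalization gave -0.0287 for IMP2. The causes were not tested.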

Other observations

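Some genes that act on proteins after import were lower in galactose on both arrays. Of 15 mitochondrial chaperone and protease genes, 7 were apart downward and 0 upward, where 22.7% and 17.5% of all tested probe sets were. Of the 15, 11 had a lower mean in galactose and 4 a higher one, where 3748 of the 7302 tested probe sets had a lower one. The median log2 difference of the 15 genes was -0.16, and 0 passed the test. Against the glucose mean, 13 of the 15 were lower on galactose B (median -0.24) and 8 on galactose C (median -0.08), where 57.9% and 51.8% of the 5208 genes were. ATP23, a protease and assembly factor of the ATP synthase, read 282 and 343 in galactose, against 670.5 and 558 in glucose (log2 difference -0.98, limma adjusted p = 0.383). YME1, the inner membrane protease facing the intermembrane space, read 730.1 and 572 in galactose, against 819.7 and 908 in glucose (log2 difference -0.42, limma adjusted p = 0.696).

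Many products of the 22 genes for assembly of cytochrome oxidase are brought in by the Mia40 relay. Of these 22 genes, 3 were apart downward (PET117, COX23 and COA3) and 0 upward, where 22.7% and 17.5% of all tested probe sets were. Their median was -0.16. C exceeded B in galactose for all 22, with a median of 0.87, where 49.8% of the 5208 genes had C above B. The 6 genes of the cristae organizing complex overlapped between the media in every case, where 4363 of the 7302 tested probe sets did. Their median difference was -0.16. C exceeded B for 5 of the 6, and the median step from B to C over all 6 was 0.98.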
